A study of Mus musculus with 10 samples.

Results

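The genes described here handle zinc, iron, copper and cadmium in the mouse. They are the zinc importers of the ZIP family (Slc39a), the zinc exporters of the ZnT family (Slc30a), the metallothioneins Mt1 to Mt4, Mtf1 and Mtf2, the iron genes Slc11a1, Slc11a2, Slc40a1, Tfrc, Fth1 and Ftl1, and the copper genes Slc31a1, Atp7a and Atp7b. The members were chosen by name from the known mRNAs with an NM_ identifier, with earlier results of these data known. The transcripts of a gene were summed. Of the 39 genes so named, 31 were listed in at least 1 sample, out of 16082 NM_ genes listed in any sample. The RNA samples comprised 4 control sperm pools, and 2 samples each of control testes, cadmium sperm and cadmium testes. The labels give C57BL/6 mice of 3 to 5 months for all samples, while the study's methods name C57BL/6J and give a younger range for the controls. The cadmium arm of 50 mice received a single intraperitoneal injection of CdCl2 at 3 mg/kg. The control arm of 50 mice received saline, and the animals were killed 35 days later. These numbers of mice come from the labels, while the study's methods give a larger number for the controls. Sperm was pooled from several mice, so a pool averages over animals.

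Zinc enters the cytosol through ZIP transporters and leaves it, to the outside or into vesicles, through ZnT transporters. When zinc or cadmium rises in a cell, the zinc finger factor Mtf1 acts on metal response elements. The best known genes under Mtf1 are the metallothioneins Mt1 and Mt2, whose small cysteine-rich proteins bind both metals, and the exporter gene Slc30a1. Cadmium has no transporter of its own and enters through carriers of zinc, iron and manganese, of which Slc39a8, Slc39a14 and Slc11a2 are the best known. Slc39a8 is also the gene behind inherited differences between mouse strains in cadmium damage to the testis.

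The start regions of Mt1, Mt2 and Slc30a1 show the sequence through which metal is known to act on these genes, and their values are given further on. Each window has 300 bases, from 250 before to 50 after the start site in the RefSeq table for GRCm38.p6, and is written from 5′ to 3′ on the strand of the gene. Capitals mark the core of a metal response element, searched on both strands as TGCACNC or TGCGCNC. The Mt2 window is chr8:94172368-94172667 on the plus strand, the Mt1 window is chr8:94178839-94179138 on the plus strand, and the Slc30a1 window is chr1:191906531-191906830 on the plus strand.
Mt2: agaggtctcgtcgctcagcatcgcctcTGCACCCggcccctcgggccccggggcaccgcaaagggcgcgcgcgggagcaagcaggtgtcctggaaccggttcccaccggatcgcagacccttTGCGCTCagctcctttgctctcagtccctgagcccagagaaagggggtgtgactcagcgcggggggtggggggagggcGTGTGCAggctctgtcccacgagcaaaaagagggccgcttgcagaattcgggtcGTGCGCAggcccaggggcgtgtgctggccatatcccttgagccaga
Mt1: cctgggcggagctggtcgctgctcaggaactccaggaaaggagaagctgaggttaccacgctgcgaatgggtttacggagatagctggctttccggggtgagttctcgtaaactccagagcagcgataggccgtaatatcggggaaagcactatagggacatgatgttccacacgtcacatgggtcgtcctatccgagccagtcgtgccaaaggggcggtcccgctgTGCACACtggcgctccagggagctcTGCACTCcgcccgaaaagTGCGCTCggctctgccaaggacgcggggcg
Slc30a1: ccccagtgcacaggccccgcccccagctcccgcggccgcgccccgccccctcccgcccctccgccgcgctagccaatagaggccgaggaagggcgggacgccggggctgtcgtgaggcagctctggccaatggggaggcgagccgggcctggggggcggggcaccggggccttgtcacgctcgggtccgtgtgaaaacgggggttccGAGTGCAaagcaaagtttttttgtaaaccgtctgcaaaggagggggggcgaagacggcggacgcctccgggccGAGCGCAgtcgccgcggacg
The Mt2 window held 4 matches, the Mt1 window 3 and the Slc30a1 window 2, and the matches in the Mt1 and Mt2 windows did not overlap. The window of Mtf1 itself held 0. Among the members, 33 had a window in the table, and 19 of these held at least 1 match in at least 1 window. Counted by window, 20 of the members' 41 windows held a match, against 25.7% of all 32851 windows of this length. At least 3 matches were found in 1.97% of all windows and at least 4 in 0.517%. A match is a description of the letters, and no binding was measured here.

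The summed expected counts of a sample ran from 366455 to 1058017 in control sperm, from 1155491 to 1254477 in cadmium sperm and from 2606086 to 2866856 in testes, and NM_ transcripts held 9.14 to 13.6% of them. The members were therefore read at low depth, with 5 to 26 of them listed per sample. The floor of 3 counts used here equals 0.000105 to 0.000819% of a sample, and it covers counting error only. The 10 spermatid and sperm marker genes checked summed to 485.88 to 591.18 FPKM (fragments per length of transcript and depth of library) in testes and to 312.08 to 512.70 FPKM in the sperm samples used in the tests. In sperm most counts of that list were on the protamine gene Prm2, with 45 to 291 per sample, and on the spermatid kinase gene Tssk6, with 7 to 79, while Odf1 was at 0 in all 6 sperm samples and Akap4 at no more than 2 counts. Of the markers of other cells, Insl3 of Leydig cells was at 0 in all sperm samples, but Star, another Leydig gene, reached 40 counts in control sperm pool 3, and the summed Leydig list stood at 2.96 to 27.49 FPKM in control sperm and 20.61 to 22.16 FPKM in control testes. The defining markers Pecam1 and Cdh5 of endothelium, Adgre1 of macrophages and Fshr of Sertoli cells were at 0 in every sample, but other genes of the Sertoli and leukocyte lists were counted. The Sertoli list, with 8 of 9 genes listed, summed to 0 to 4.26 FPKM in the 3 control sperm pools used in the tests, 3.23 and 9.69 in cadmium sperm and 3.31 to 5.88 in testes. Its gene Amhr2 had 12 counts in control sperm pool 1 and 5 and 7 in cadmium sperm, where it was called higher than in cadmium testes by edgeR (adjusted p = 0.0364). The macrophage and leukocyte list, with 6 of 8 genes listed, summed to 0 to 0.86 FPKM in control sperm, 5.30 and 1.70 in cadmium sperm and 2.97 to 3.84 in testes, with Cd4 at 6 and 4 counts in cadmium sperm. The part of these cell types in the results was not tested.

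**Figure D1:**
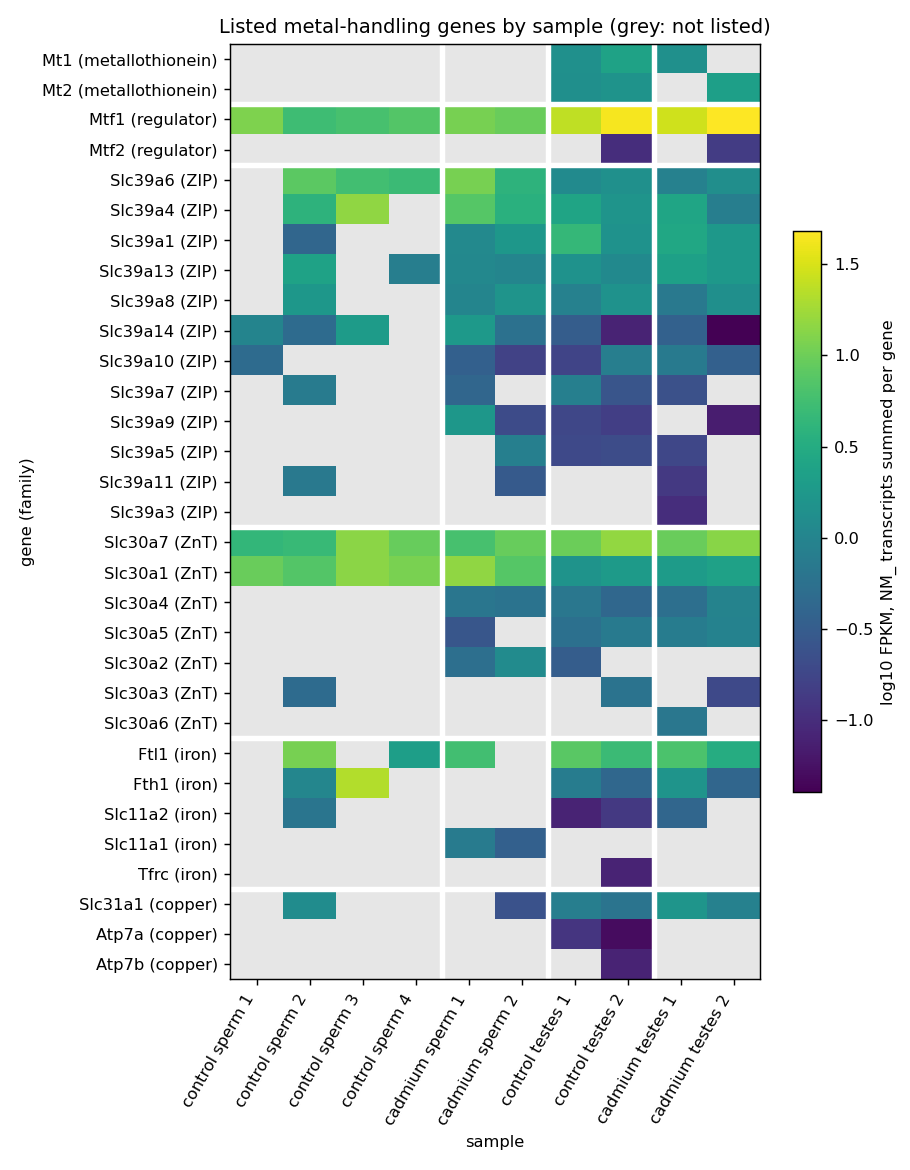
FPKM of the 31 listed members (rows, by family) in the 10 samples (columns), on a log10 colour scale, with grey where a gene was not listed. Mtf1, Slc30a7 and Slc30a1 are the only rows filled in all 10 samples, and the rows of Mt1 and Mt2 are grey in all 6 sperm samples.

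Most of the counts of this group fell on 3 genes. Mtf1, Slc30a7 and Slc30a1 were the only members listed in all 10 samples, each with at least 10 counts in every one, and together they held 61.1 to 96.3% of the members' counts in a sample. Their transcripts are long, and per length they held 34.4 to 94.8% of the members' summed FPKM. In all, 14 members reached 10 counts in any sample, and 11 of the 31 listed never exceeded 3 counts. In the 3 control sperm pools used in the tests, 16 members were listed at least once and 4 in every pool. In control testes 27 members were listed at least once and 22 in both samples, in cadmium sperm 20 and 14, and in cadmium testes 26 and 15. The members summed to 54.9 FPKM in control sperm, 54.3 in cadmium sperm, 71.7 in control testes and 72.4 in cadmium testes.

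The metallothioneins were barely counted in these libraries. Mt1 (chr8:94178883-94180327) had 2 and 3 counts in the control testes samples, 2 and 0 in the cadmium testes samples, and 0 in all 6 sperm samples. Mt2 (chr8:94172618-94173567) had 2 and 2 counts in control testes, 0 and 3 in cadmium testes, and 0 in all 6 sperm samples. In FPKM, the largest value of either gene was 2.35, for Mt1 in control testes sample 2. Mt3 and Mt4 were not listed in any sample. No sample exceeded the floor of 3 counts for any metallothionein, so no fold change is given for them, and at this depth a difference between cadmium and control was not detectable. Genes that every cell uses were counted unevenly. The ribosomal protein gene Rpl3, the lowest of those checked, was at 0 in all 6 sperm samples and at no more than 11 counts in testes. Gapdh, by contrast, had 118.98 to 222.71 counts in testes and 0 to 69.57 in sperm. A metallothionein at 0 is given here as a listing and not as absence.

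Mtf1 (chr4:124802549-124849800, plus strand), the factor that reads the metal response element, was by contrast the best counted member in testes. Its counts were 40, 43, 17 and 28 in control sperm pools 1 to 4, 99 and 90 in cadmium sperm, 534 and 859 in testes of control mice, and 617 and 994 in testes of cadmium mice. Its level per length was 6.21 ± 0.95 FPKM (mean ± SD, n = 3) in control sperm, 10.3 ± 1.28 (n = 2) in cadmium sperm, 33.8 ± 13.3 (n = 2) in control testes and 38.3 ± 13.9 (n = 2) in cadmium testes. Every testes sample stood above every sperm sample, and sample 2 stood above sample 1 in both testes groups. The last 316 bases of its span overlap 1110065P20Rik on the opposite strand, a gene with 0 to 8 counts per sample. Mtf2, which shares the name but is known as a partner of the Polycomb complex, had 1 count in control testes sample 2 and 1.56 in cadmium testes sample 2.

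Among the ZnT exporters, 7 of 10 genes were listed, and Slc30a7 and Slc30a1 carried the family. Slc30a7 (chr3:115938973-116007414, minus strand), which loads zinc into the Golgi, had 17, 45, 46 and 42 counts in control sperm, 64 and 106 in cadmium sperm, 254 and 359 in testes of control mice, and 244 and 333 in testes of cadmium mice. Per length this was 9.26 ± 4.62 FPKM (n = 3), 7.73 ± 2.28 (n = 2), 12.5 ± 3.85 (n = 2) and 11.6 ± 2.91 (n = 2) in the same order of groups. Both cadmium sperm samples, at 6.12 and 9.34 FPKM, were below every testes sample, at 9.51 to 15.27 FPKM, while control sperm, at 4.44 to 13.94 FPKM, overlapped each of the other groups. Its span holds the pseudogene Gm6649, so the assignment of its reads is less certain.

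Slc30a1 (chr1:191906697-191913248, plus strand) encodes the exporter of the plasma membrane. It had 21, 40, 27 and 31 counts in control sperm, 89 and 49 in cadmium sperm, 23 and 26 in testes of control mice, and 29 and 33 in testes of cadmium mice. In FPKM the control sperm pools were at 9.50, 7.24, 14.17 and 11.69, the cadmium sperm samples at 14.74 and 7.48, the control testes at 1.54 and 1.92, and the cadmium testes at 1.96 and 2.34. Every sperm sample was above every testes sample, and control and cadmium sperm overlapped. The first 831 bases of its span overlap 1700034H15Rik, a lncRNA on the opposite strand. The other ZnT genes were rare. Slc30a4, which moves zinc into vesicles, had 4 and 4 counts in cadmium sperm and 6 to 14 in testes, and Slc30a5, of the early secretory pathway, had 1 and 0 counts in cadmium sperm and 5 to 8 in testes. Both were at 0 in all 4 control sperm pools. Slc30a2, Slc30a3 and Slc30a6 did not exceed 5 counts, and Slc30a8, Slc30a9 and Slc30a10 were not listed.

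**Figure D2:**
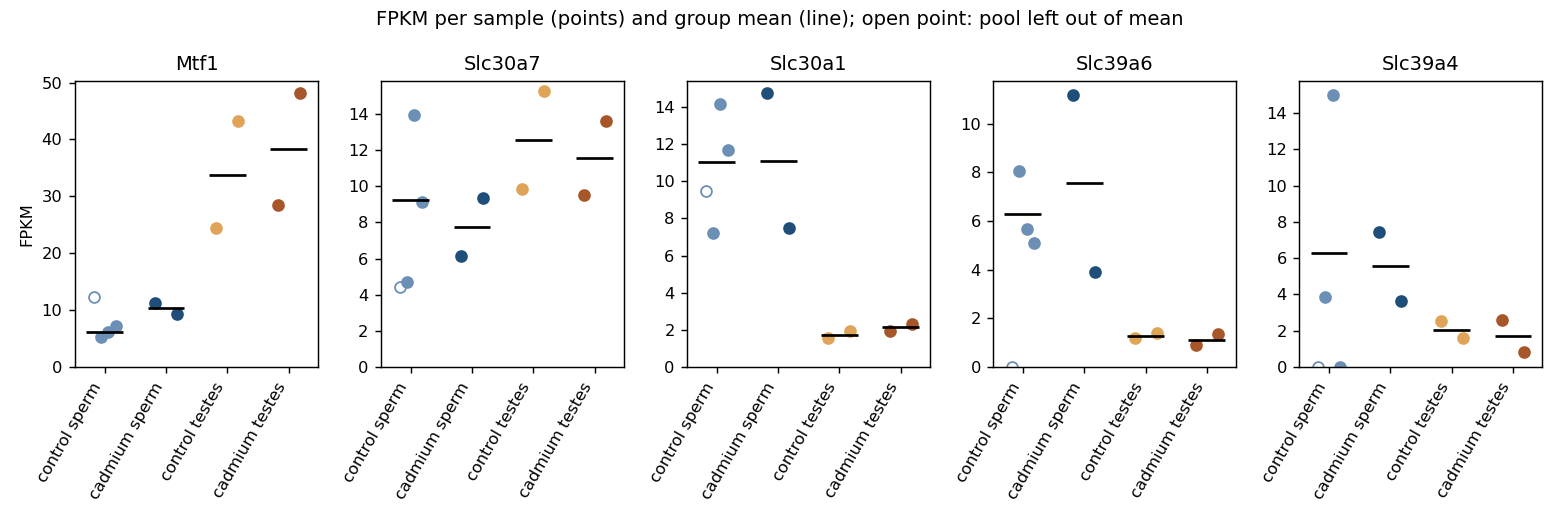
FPKM of Mtf1, Slc30a7, Slc30a1, Slc39a6 and Slc39a4 (1 panel each, each with its own axis from 0) in the 4 groups. Points are samples, lines are group means, and the open point is control sperm pool 1, which the means leave out. Mtf1 is higher in every testes sample and Slc30a1 in every sperm sample, while for Slc30a7 control sperm overlaps the other groups and both cadmium sperm points lie below the testes points.

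Among the ZIP importers, 12 of 14 genes were listed, none of them in all 10 samples. Slc39a6 (chr18:24579881-24603817), an importer of the plasma membrane, had 0, 33, 8 and 10 counts in control sperm, 50 and 19 in cadmium sperm, 13 and 14 in testes of control mice, and 10 and 14 in testes of cadmium mice. In FPKM it stood at 0, 8.07, 5.68 and 5.09 in control sperm, 11.19 and 3.92 in cadmium sperm, 1.18 and 1.40 in testes of control mice, and 0.91 and 1.34 in testes of cadmium mice. Apart from control sperm pool 1, where it was not listed, every sperm sample was above every testes sample. Slc39a4 (chr15:76612383-76618506), known for zinc uptake in the intestine, had 0, 9, 12 and 0 counts in control sperm, 19 and 10 in cadmium sperm, 16 and 9 in testes of control mice, and 16 and 5 in testes of cadmium mice. Its FPKM was 0, 3.87, 15.01 and 0 in control sperm and 7.47 and 3.63 in cadmium sperm, against 2.55 and 1.58 in testes of control mice and 2.57 and 0.84 in testes of cadmium mice. Control sperm thus spanned the range of all other groups for this gene, and the cadmium sperm samples were above both cadmium testes samples.

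The cadmium carriers of the family were rarely counted. Slc39a8 (chr3:135816882-135888572, plus strand) had 0, 6, 0 and 0 counts in control sperm, 4 and 7 in cadmium sperm, 9 and 13 in testes of control mice, and 7 and 13 in testes of cadmium mice. Its counts fell on different transcripts in different samples. In control testes, all 9 counts of sample 1 were on NM_001135150 and all 13 of sample 2 on NM_001135149, and in cadmium testes NM_001135149 had 0. Slc39a14 (chr14:70303467-70351452) had 2, 2.5, 3.5 and 0 counts in control sperm, 10.5 and 3.5 in cadmium sperm, 4.5 and 1 in testes of control mice, and 5 and 0.5 in testes of cadmium mice. Per length, the cadmium sperm samples of Slc39a14, at 1.86 and 0.57 FPKM, were above all testes samples, at 0.04 to 0.36 FPKM, and control sperm, at 0 to 1.96 FPKM, overlapped the other groups.

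Of the other importers, Slc39a1, another carrier of the plasma membrane, had 0, 1, 0 and 0 counts in control sperm, 3 and 5 in cadmium sperm, 30 and 9 in testes of control mice, and 18 and 11 in testes of cadmium mice. Slc39a13, of the secretory pathway, had 0 to 6 counts in control sperm, 3 and 3 in cadmium sperm and 7 to 15 in testes. Slc39a10, a close relative of Slc39a6, had 0 to 2 counts in sperm and 2.34 to 10.54 in testes, which per length was 0 to 0.48 FPKM in sperm and 0.17 to 0.82 in testes. Slc39a9 had 10.26 counts in cadmium sperm sample 1 and no more than 2.62 in any other sample, and Slc39a7, which releases zinc from the endoplasmic reticulum, had 0 to 5.71. Slc39a3, Slc39a5 and Slc39a11 did not exceed 2 counts, and Slc39a2 and Slc39a12 were not listed.

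The iron genes were led by ferritin, the protein shell that stores iron. Ftl1 (chr7:45457944-45459886), its light chain, had 0, 11, 0 and 1 counts in control sperm, 6 and 0 in cadmium sperm, 21 and 12 in testes of control mice, and 17 and 8 in testes of cadmium mice. Fth1 (chr19:9980600-9985111), its heavy chain, had 0, 1, 7 and 0 counts in control sperm, 0 and 0 in cadmium sperm, 2 and 1 in testes of control mice, and 4 and 1 in testes of cadmium mice. The single value of 7 counts in control sperm pool 3 made 21.4 FPKM there, the highest value of Fth1, while the other samples were at 0 to 1.57 FPKM. The iron importers were at the floor. Slc11a2, the importer of divalent metals, had 2 counts in control sperm pool 2, 1 and 0.99 in control testes, 4 and 0 in cadmium testes, and 0 in the other 5 samples. Tfrc, the transferrin receptor, had 1 count in control testes sample 2 alone, Slc11a1, of macrophage phagosomes, had 2 and 1 counts in cadmium sperm alone, and Slc40a1, the iron exporter ferroportin, was not listed. Of the copper genes, the importer Slc31a1 had 5 counts in control sperm pool 2, 1.14 in cadmium sperm sample 2, 9 and 6 in testes of control mice and 16.99 and 9.05 in testes of cadmium mice. The copper pumps Atp7a and Atp7b were listed in control testes alone, with no more than 3 counts.

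Mature sperm was compared with whole testes first, to ask which metal genes differ in their share of the RNA between the tissue and the cells it releases. Fewer cells of a type and less RNA per cell cannot be told apart in such bulk samples. The paper also reports smaller RNA in sperm, without the ribosomal RNA peaks seen in testes. The part of this difference in RNA integrity in the folds was not tested. Of the members, 12 passed the filter of 1 FPKM in 2 samples in control sperm and control testes, and a gene could pass through the tissue where it is high alone. Mtf1 was lower in control sperm by edgeR's quasi-likelihood test, with a log2 fold change of -2.75 (SE 0.68, adjusted p = 0.00328), and its mean FPKM was 5.45 times higher in testes. It was the 1 member called, where a call needed an adjusted p under 0.05 and more than a 2-fold change, and 0 members were called higher. Of the 4910 NM_ genes tested, 20.2% were called lower in control sperm and 4.38% higher. The call of Mtf1 was lost without control sperm pool 4, at -2.73 (adjusted p = 0.103), without control testes sample 2, at -2.34 (adjusted p = 0.121), and by limma on log2(FPKM + 0.1), at -2.38 (adjusted p = 0.0511). Without control testes sample 1 its log2 fold change was -3.39 and the call held. Where 1 testes sample was left, it was assumed to vary like the sperm pools.

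The zinc transporters that were higher in FPKM in control sperm did not pass. Slc30a1 had a log2 fold change of 2.35 (SE 1.06, adjusted p = 0.105), with a mean of 11.03 ± 3.51 FPKM (n = 3) in sperm and 1.73 ± 0.27 (n = 2) in testes. It passed without control sperm pool 3 (adjusted p = 0.0248), by DESeq2 (adjusted p = 0.0196) and when all 4 groups were fitted together (adjusted p = 0.0499). Slc39a6 had 2.07 (SE 1.33, adjusted p = 0.262) and Slc39a4 1.22 (SE 1.52, adjusted p = 0.592) on the same log2 scale, and Slc30a7 had -0.82 (SE 0.72, adjusted p = 0.430). Slc39a1 had -3.69 (SE 1.78, adjusted p = 0.129). It rested on 1 count in sperm against 39 in testes, a ratio of shares of 0.0726 with an exact 95% interval of 0.00179 to 0.429 that covers counting error only.

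Of the ferritins, Fth1 had a log2 fold change of 2.86 (SE 1.52, adjusted p = 0.168) that rested on 8 counts in sperm, 7 of them in pool 3, against 3 in testes. Its ratio of shares was 7.55, with an exact 95% interval of 1.81 to 44.2 that covers counting error only and not the spread between pools. Ftl1 had -0.37 (SE 1.51, adjusted p = 0.890), Slc39a8 -0.84 (SE 1.46, adjusted p = 0.713) and Slc39a13 -0.12 (SE 1.43, adjusted p = 0.962). Mt1 and Mt2 passed the filter, with adjusted p = 0.179 and adjusted p = 0.234. Their counts are at or under the floor in every sample, although limma on FPKM, which does not weigh the counts behind a value, called both lower in sperm. The median log2 fold change over the 12 members was -0.59, beside -1.22 over all NM_ genes tested. With genes at 0 throughout a group set to the bound of 3 counts over the group, the medians were 0.32 and -0.88. The only members so set were Mt1 and Mt2, at 0 in every control sperm pool. The turn in sign to 0.32 came from their upper limits at this depth and is no result about the members.

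Cadmium sperm and cadmium testes, which share no sample with the controls, were then compared, and 9 members were tested. Slc30a1, Slc39a6 and Slc39a4 were higher in cadmium sperm and Mtf1 lower. Slc30a1 had a log2 fold change of 2.54 (SE 0.58, adjusted p = 0.000112 by edgeR), with 11.1 ± 5.13 FPKM in sperm and 2.15 ± 0.27 in testes (n = 2 each), 5.17 times as much. Slc39a6 had 2.88 (SE 0.65, adjusted p = 0.000109), with means 6.72 times apart, and Slc39a4 had 1.95 (SE 0.76, adjusted p = 0.0348), with means 3.26 times apart. Mtf1 had -1.74 (SE 0.56, adjusted p = 0.0100), and its mean FPKM was 3.72 times higher in testes. Of the 5080 NM_ genes tested here, 20.7% were called higher in sperm and 18.9% lower, so calls were common in both directions.

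Leaving out 1 sample left a group of 1 here, which was then assumed to vary like the other group, and calls were lost while the sign of each of these 4 stayed. Without cadmium testes sample 1 none of the 4 was called, at log2 fold changes of 2.08 for Slc30a1 (adjusted p = 0.140), 2.31 for Slc39a6 (adjusted p = 0.172), 2.52 for Slc39a4 (adjusted p = 0.174) and -2.36 for Mtf1 (adjusted p = 0.0694). Mtf1 was at -1.12 without cadmium testes sample 2, and Slc39a6 at 2.17 without cadmium sperm sample 1 and 3.50 without cadmium sperm sample 2. The call of Mtf1 was lost whichever of the 4 samples was left out, and that of Slc39a4 without any of 3 of them, the exception being cadmium sperm sample 2. Slc39a4 was also lost by DESeq2 (adjusted p = 0.135) and with no filter (adjusted p = 0.133). Limma on FPKM kept Mtf1 alone, and so did 1 fit of all 4 groups. The remaining 5 members did not pass. Slc30a7 had a log2 fold change of -0.36 (SE 0.54, adjusted p = 0.649), Ftl1 -0.58 (SE 0.98, adjusted p = 0.696), Slc39a8 0.53 (SE 0.90, adjusted p = 0.702), Slc39a1 -0.37 (SE 0.91, adjusted p = 0.803) and Slc39a13 -0.65 (SE 0.97, adjusted p = 0.656). The median over the 9 members was -0.36, beside -0.25 over all NM_ genes tested. Of the 9 members tested in both pairs of tissues, 8 had the same sign in each. The exception was Slc39a8. The share of all NM_ genes with the same sign was not computed, so this count does not set the members apart. Several of these folds, such as those of Ftl1 and Slc39a13, were smaller than their standard errors.

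**Figure D3:**
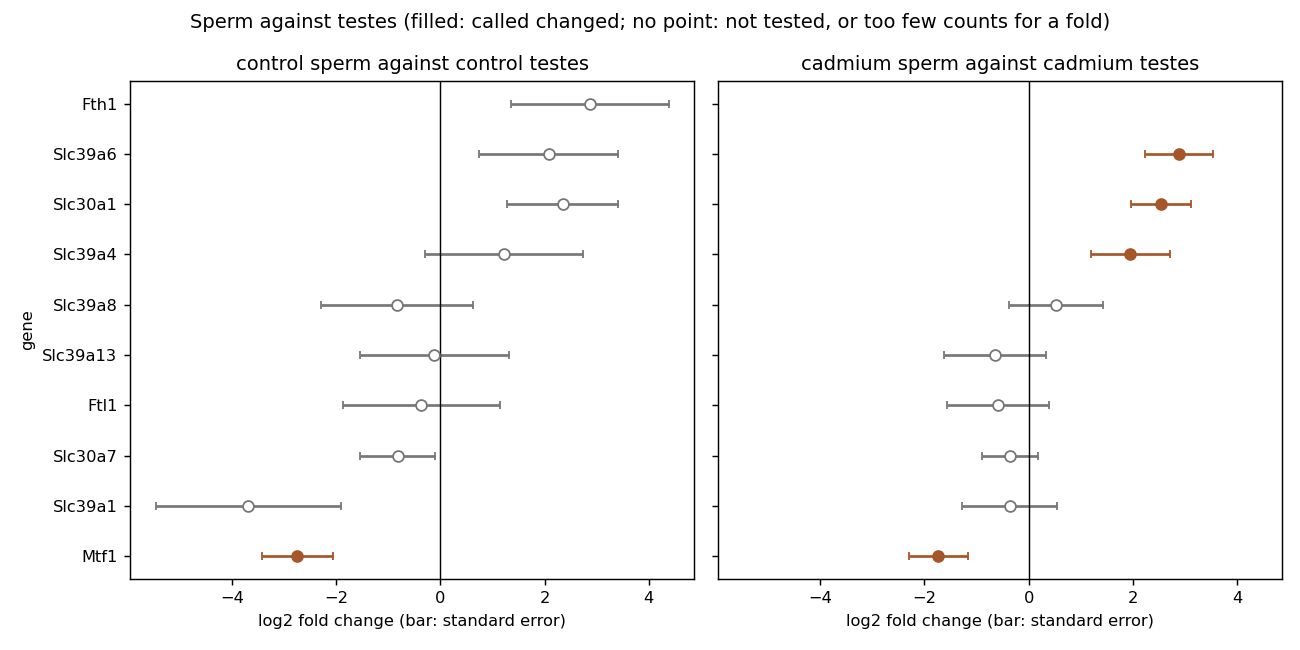
Log2 fold change of sperm against testes in control (left) and cadmium (right) samples for the members tested, with bars of 1 standard error from the edgeR test. Filled points are called. Mtf1 is called lower in both panels, and Slc30a1, Slc39a6 and Slc39a4 are called higher on the right alone, where their bars are shorter. Mt1 and Mt2 have no point because their counts were too few for a fold change.

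Cadmium and control testes were compared to ask whether genes of metal handling differed 35 days after the dose. No member of the 11 tested was called by edgeR, 0 had an unadjusted p under 0.05, and DESeq2 and limma called 0 as well. Of the 5113 NM_ genes tested, 0.0587% were called, so calls were rare throughout. For Mtf1 the log2 fold change was 0.24 (SE 0.56, adjusted p = 1.00), with 24.42 and 43.24 FPKM in control and 28.45 and 48.12 in cadmium testes. For Slc30a1 it was 0.38 (SE 0.56, adjusted p = 1.00), with 1.54 and 1.92 FPKM in control and 1.96 and 2.34 in cadmium testes. For Slc30a7 it was -0.06 (SE 0.52), for Slc39a8 -0.08 (SE 0.74), for Slc39a6 -0.11 (SE 0.68), for Slc39a4 -0.23 (SE 0.70) and for Ftl1 -0.35 (SE 0.64), all with adjusted p = 1.00. Slc39a13 had the highest value of the 9 members with a fold change, 0.66 (SE 0.68, adjusted p = 1.00). The median over the 11 members was -0.11, beside 0.02 over all NM_ genes tested. Mt1 and Mt2 were tested on 2 to 5 counts per group. Slc39a14, Slc11a2, Tfrc and Fth1 did not reach the filter in testes. The 10 marker genes of the epididymis summed to 5.42 to 8.63 FPKM in control testes and to 3.56 and 19.76 FPKM in the cadmium testes samples. Most counts of this list in control testes were on 1 gene, Epcam, with 17 and 26. In cadmium testes sample 2 Adam7 was at 33 counts, Epcam at 16, Rnase9 at 11 and Lcn5 at 7. The part of epididymis cells in these values was not tested.

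In sperm, 11 members were tested between cadmium and control, and 0 were called by edgeR, DESeq2 or limma. A single member, Fth1, had an unadjusted p under 0.05 (adjusted p = 0.659). It had 0 counts in both cadmium samples and 8 in control sperm, 7 of them in pool 3, and no fold change is given for it. Of the 4040 NM_ genes tested, 0.0743% were called. Mtf1 had a log2 fold change of 0.80 (SE 0.74, adjusted p = 1.00), with 5.32, 6.09 and 7.21 FPKM in the control pools used and 11.20 and 9.39 in cadmium sperm. Control sperm pool 1, left out of the test, was at 12.36 FPKM, above both cadmium samples. Slc30a1 had 0.11 (SE 0.76), Slc39a6 0.23 (SE 1.03), Slc39a4 0.04 (SE 1.49), Slc30a7 -0.06 (SE 0.69), Slc39a14 0.72 (SE 2.01), Slc39a8 0.87 (SE 1.96) and Ftl1 -0.98 (SE 2.03) on the log2 scale, each with adjusted p = 1.00. Slc39a1 had the highest value, 2.51 (SE 1.78, adjusted p = 1.00), on 8 counts in cadmium and 1 in control sperm. Its ratio of shares was 6.42, with an exact 95% interval of 0.860 to 284.7 that covers counting error only. The median over the 11 members was 0.11, beside 0.50 over all NM_ genes tested. The 0.50 became 0.33 with RLE size factors in place of TMM, and the sign of Slc30a1 and Slc39a4 turned with that scaling. The epididymis list summed to 6.96 and 6.22 FPKM in cadmium sperm and to 2.79 to 6.77 in the control pools. Its gene Epcam had 10 and 8 counts in cadmium sperm and 6, 5 and 0 in control sperm pools 2 to 4. Crisp1 had 4 and 4 counts in cadmium sperm and Cdh1 1 and 3, with both at 0 in all control pools. Adam7 had 5 counts in control sperm pool 4 and 0 and 1 in cadmium sperm. The part of such cells in these values was not tested.

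The difference between the cadmium effect in sperm and that in testes was tested for 14 members, and 0 were called by edgeR, DESeq2 or limma. One had an unadjusted p under 0.05, again Fth1 (adjusted p = 1.00). Of the 6609 NM_ genes tested, 0.0151% were called. The difference was 0.51 (SE 0.94) for Mtf1, -0.34 (SE 1.21) for Slc30a1, 0.25 (SE 1.39) for Slc39a6, 0.19 (SE 1.51) for Slc39a4, 0.79 (SE 1.72) for Slc39a8, 0.68 (SE 1.95) for Slc39a14 and -0.81 (SE 1.68) for Ftl1 on the log2 scale. For each of these genes the standard error exceeded the difference, and the adjusted p was 1.00. Slc31a1, at -3.13 (SE 2.12), and Slc39a1, at 2.82 (SE 2.06), had differences larger than their standard errors and were not called either.

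**Figure D4:**
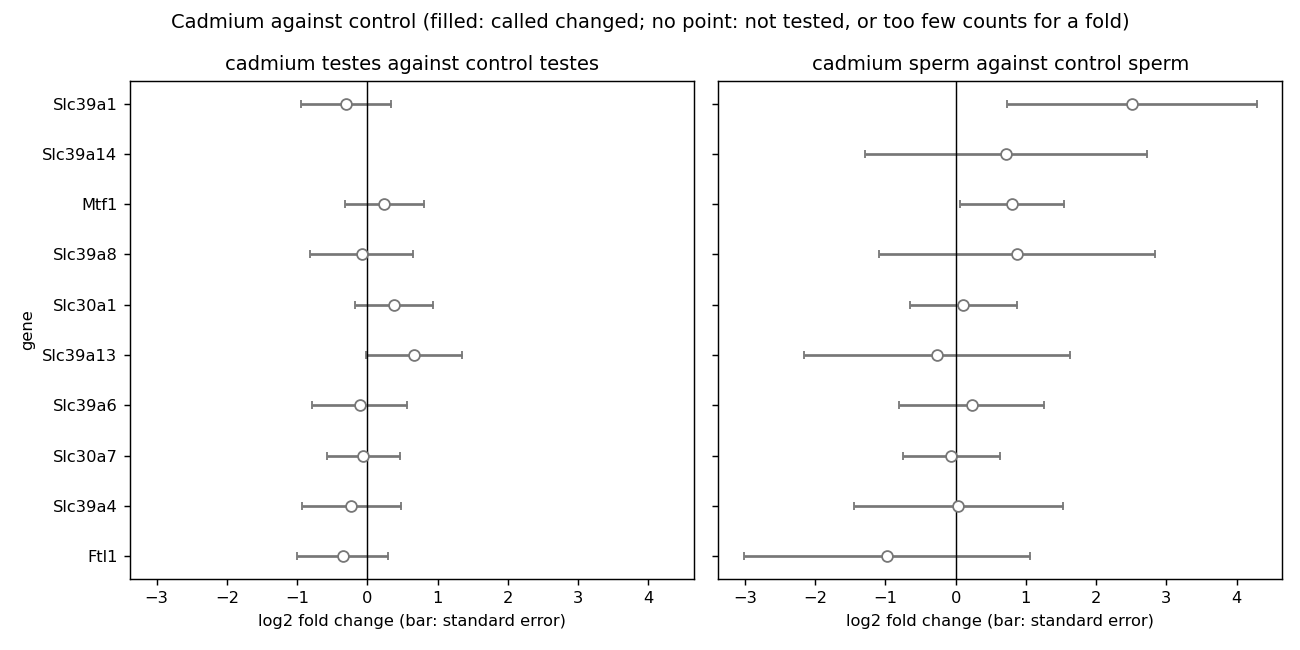
Log2 fold change of cadmium against control in testes (left) and sperm (right) for the members tested, with bars of 1 standard error from the edgeR test. No point is filled, since no member was called. Bars are longer in sperm, and genes with too few counts for a fold change have no point.

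A wider list of 57 other genes of metal handling was tested in the same fits, and 45 of them were listed. In control sperm against control testes 13 were tested, and 1, the iron chaperone gene Pcbp2, was called lower in sperm. In cadmium sperm against cadmium testes 12 were tested, and 2 were called higher in sperm, Glrx5, of iron-sulfur cluster assembly, and Pcbp1, another iron chaperone gene, on no more than 6 counts per sample. Between cadmium and control, edgeR called 0 of 12 in testes and 0 of 9 in sperm, with 0 and 1 of them at an unadjusted p under 0.05. DESeq2 called 0 in both, and limma called 0 in testes and, on log2(FPKM + 0.1) alone, 1 in sperm, Glrx5, on 3 and 2 counts in cadmium sperm and 0 in every control sperm pool. The genes of the metal and oxidative stress response, 26 in all, had 0 calls between cadmium and control as well, with 8 tested in testes and 10 in sperm and 0 at an unadjusted p under 0.05. Hmox1, a classical cadmium-induced gene, had no more than 1 count in any sample. Between tissues 3 of 11 were called in the controls, where 4.38% of all NM_ genes tested were called higher and 20.2% lower, and 4 of 13 in the cadmium samples, where 20.7% and 18.9% were. The heat shock gene Hspa1b was higher in sperm and the superoxide dismutase gene Sod1 lower in both. Hspa1a, of the same list, was called in neither, at log2 fold changes of 0.31 in the controls and 0.65 in the cadmium samples. The counts of Hspa1a and Hspa1b were mostly not whole numbers, and the assignment of reads between them was not tested.

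The files do not state whether strand was used in counting, so reads from a gene and from a partner on the opposite strand cannot be told apart. Among the 39 members, 11 overlapped another annotated gene of any kind, Slc30a7 through a pseudogene and a miRNA alone. Of these, 8 had a known partner on the opposite strand, Mtf1 and Slc30a1 included. The shares that follow take protein-coding and lncRNA partners alone, so they are not on the same measure. Among the 20 NM_ genes with most counts in control testes, 18 overlapped another gene, against 38.7% of the listed NM_ genes with a position, and in control sperm 11 of 20 did, against 43.3%. An example is Acat3, with 6001 and 6985 counts in control testes, beside 172 and 288 for its neighbour Tcp1. The part of such overlaps, and of lncRNAs at the same place, in the counts of Mtf1 and Slc30a1 was not tested.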

How the data were processed

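RNA from 4 pools of control sperm and 2 samples each of control testes, cadmium sperm and cadmium testes was sequenced by the authors as strand-specific, ribosomal RNA-depleted libraries. Clean reads were aligned with SOAP2 according to the study's methods, while the submitters' processing notes name HISAT and the mm10 build. The counting tool and its strand setting are not given in the sources used here. The deposited tables hold, for each transcript, an expected count, which is an estimate without normalization, and an FPKM, which the authors scaled by length and depth. The length column that the authors deposited was used as a description only.

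Here transcripts were summed by gene within their class, and an unlisted gene was taken as 0. Counts were rounded and tested with edgeR 4.0.16 in R 4.3.3 (TMM, quasi-likelihood), over features of any class that reached 1 FPKM in 2 or more of the samples compared. Adjusted p-values follow Benjamini and Hochberg over all features tested. A call needs an adjusted p under 0.05 and more than a 2-fold change. Standard errors were derived from the F statistic and do not describe the scatter of samples. The comparisons were sperm against testes and cadmium against control. Control sperm pool 1 was left out of the tests, as in the study, and returned as an alternative. Alternatives were DESeq2 1.42.0, limma 3.58.1 on log2(FPKM + 1) and log2(FPKM + 0.1), RLE size factors, other filters, NM_ genes alone, 1 fit of all groups, the replicate number as a block, and each sample left out in turn. The test was checked on simulated counts. Replicates differed by more than counting noise in every pair, with a chi-square per degree of freedom of at least 9.57, so none was merged. The study's methods describe the control sperm pools as separate groups of mice and take the control testes from the same mice, without saying which samples share them. Nothing says so for the cadmium samples, so p-values measure the spread between these samples. No fold change is given where a group was at 0 or both groups were at or under 3 counts. This rule was applied to the full groups, and not again after a sample was left out. Intervals of ratios are exact (Clopper-Pearson) on counts pooled over the samples of a group, and leave out the spread between samples.

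The members and the lists of other metal, stress and marker genes were chosen with earlier results of these data known. Values per sample and, where the counts allow, fold changes are given for the metallothioneins, Mtf1, Slc39a8, Slc39a14, Slc30a1, Slc11a2, Slc40a1, Tfrc, Fth1 and Ftl1 and for every member called, and other members by their range. Further values of other members, such as Slc30a7, Slc39a1 and Slc39a13, were added after they were seen. Gene positions and start regions come from RefSeq's GRCm38.p6 annotation. Tables and figures were made with Python 3.11.15, pandas 2.3.3 and matplotlib 3.10.9.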

Additional observations from a re-analysis of the deposited data

Results flagged for a closer look

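Within the 4 control sperm pools, 11 members with more than 3 counts in a pool were examined for 1 pool lying far from the others, and 3 were flagged. Chance flags about 1 in 20 groups of evenly measured values, but that rate does not hold for these low counts, since a member listed in 1 pool alone is always flagged. Fth1 stood at 21.41 FPKM in control sperm pool 3, on 7 counts, with the other pools at 0 to 1.04 FPKM. Slc31a1 stood at 1.27 FPKM in control sperm pool 2, on 5 counts, with 0 in the others. Slc39a8 stood at 1.69 FPKM in control sperm pool 2, on 6 counts, with 0 in the others. Pool 2 was the deepest of the 4 and pool 3 the shallowest, and the part of depth in these values was not tested.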

How the results depend on the processing

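In control sperm against control testes, where edgeR called 1 member, DESeq2 and 1 fit of all groups called 2, limma on log2(FPKM + 1) called 4 and on log2(FPKM + 0.1) 2, and leaving out 1 sample gave 0 to 2. In cadmium sperm against cadmium testes, with 4 calls, both forms of limma and 1 fit of all groups called 1, DESeq2 3, no filter 5 (Slc30a2 and Slc39a9 gained, Slc39a4 lost), and leaving out 1 sample gave 0 to 3. In the other 3 comparisons every alternative called 0 members. Sign changes were limited to folds that were not called. In control sperm against control testes, Slc39a4 was -0.22 by limma on log2(FPKM + 0.1), Ftl1 0.16 with a filter of 10 counts, and, with all 4 pools and a replicate block, Fth1 was -0.20 and Slc39a4 -0.76. In cadmium against control sperm, Slc30a1 was -0.088 by DESeq2, -0.090 with RLE factors, -0.014 and -0.017 by limma and -0.20 with the filter of 10 counts, where Slc39a4 was -0.30 and Slc39a6 -0.032. There Slc39a4 was -0.17 by DESeq2 and with RLE factors and -0.013 with NM_ genes alone. The difference of the cadmium effects turned for Slc30a1, to 0.13 with no filter, 0.13 with the filter of 10 counts and 0.081 with all 4 pools and the block. Leaving out 1 sample moved the log2 fold change of control sperm against testes from -2.68 to 0.38 for Ftl1, and that of cadmium sperm against testes from -6.28 to 0.48 for Ftl1 and -0.20 to 1.23 for Slc39a8. For cadmium in testes the ranges were -0.44 to 0.98 for Mtf1, -1.06 to 0.22 for Slc39a4, -0.62 to 0.24 for Slc39a6 and -0.56 to 0.41 for Slc39a8. For cadmium in sperm they were -4.94 to 1.18 for Ftl1, -0.36 to 0.42 for Slc30a1, -0.67 to 1.05 for Slc39a4 and -0.58 to 0.72 for Slc39a6. For the difference of the effects they were -5.93 to 2.03 for Ftl1, -0.33 to 1.57 for Mtf1, -0.82 to 0.43 for Slc30a1, -0.10 to 4.12 for Slc39a14, -0.39 to 1.33 for Slc39a4 and -0.43 to 1.22 for Slc39a6. Without cadmium sperm sample 1, the remaining cadmium sperm sample had 0 counts of Ftl1. Any fold of Ftl1 from such a fit, -6.28 included, sets a group at 0 against another. Its size is therefore no measured change. The cause of the other moves was not tested. With the replicate number as a block, the count of members called was 4 in cadmium sperm against testes, 1 in control sperm against testes and 0 in the others, so no call changed. The deviations of same-numbered control and cadmium testes had a correlation of 0.49 over 2 pairs, and the labels do not say that the numbers pair samples. Depth limits these results, since 14 of the 31 listed members reached 10 counts in any sample.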
